A study of Mus musculus with 18 samples.

Results

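Several genes of the Schwann cell, *Mbp*, *Pmp22*, *Prx*, *S100b*, *Sox10* and *Ngfr*, were followed through RNA sequencing of isolated quadriceps myofibers from 18 C57BL/6 mice. The 6 genes were taken by name from the 43430 genes of the count table. Male and female mice each received vehicle, weekly prednisone or daily prednisone, which gave 6 groups of 3 mice and 1 library per mouse. All were young adult wild-type animals injected intraperitoneally for about a month with the same dose per injection, and the weekly groups were collected some days after their last dose. Prednisone is a synthetic glucocorticoid that acts through the glucocorticoid receptor. Myofibers were the material held back by a strainer after collagenase digestion of the muscle, so intramuscular nerve can stay attached to the fibers. Libraries held between 10506661 and 14686654 counted reads.

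Schwann cells are the glia of peripheral nerve. In a muscle they wrap the motor and sensory axons of the intramuscular nerve branches, and specialised terminal Schwann cells cap the neuromuscular junction. Myelinating Schwann cells wind their membrane around an axon and pack it into compact myelin, which holds the structural proteins MBP and PMP22. Periaxin, encoded by *Prx*, links the outer Schwann cell membrane to the basal lamina through DRP2 and dystroglycan. SOX10 is the transcription factor that gives the lineage its identity and, with EGR2, switches on the myelin genes. S100B is a calcium-binding protein of glia, and NGFR (p75NTR) is a neurotrophin receptor of non-myelinating and immature Schwann cells. Muscle fibers make little of these transcripts. *Pmp22*, *S100b* and *Ngfr* are also transcribed in some cells outside the Schwann lineage, and the *Mbp* locus makes further transcripts, called golli, in other cell types.

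All 6 genes passed the expression filter that left 13596 genes for testing. Coordinates are those of the count table, on mm10. *Mbp* (ENSMUSG00000041607) spans chr18:82475146-82585637 on the plus strand and received 10091 reads over the 18 libraries.

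*Pmp22* (ENSMUSG00000018217) spans chr11:63128982-63159547 on the plus strand and received 15986 reads. *Prx* (ENSMUSG00000053198) spans chr7:27499324-27520214 on the plus strand and received 5207 reads. The other genes were far more thinly covered. *S100b* (ENSMUSG00000033208, chr10:76253853-76261159, plus strand) received 727 reads, between 13 and 75 per library. *Sox10* (ENSMUSG00000033006, chr15:79154913-79164490, minus strand) received 828 reads, between 20 and 78 per library. *Ngfr* (ENSMUSG00000000120, chr11:95568818-95587735, minus strand) received 166 reads, between 2 and 18 per library, so counting error alone is large for this receptor. Genes on the opposite strand overlap 3 of the 6, and the strand setting of the counting is not given in the sources used here. These are *Dip2a* for *S100b* (2842 reads against 727), *Rpl21-ps8* for *Mbp* (741 against 10091) and *Gm15541* for *Prx* (112 against 5207), so the *S100b* level is the least certain of the 3.

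The 250 bases upstream of the start sites are shown for *Prx* and *Pmp22*, whose levels moved together across libraries and whose windows held a searched motif. They come from RefSeq on GRCm38.p6, which gave windows for 4 of the 6 genes (*Prx*, *Pmp22*, *S100b* and *Ngfr*). Capitals mark CATTCC, the core bound by TEAD factors, in both, and in *Prx* also ATGCAAAT, the octamer bound by POU factors. Each sequence is written 5′ to 3′ on the plus strand.
Prx, chr7:27499074-27499323: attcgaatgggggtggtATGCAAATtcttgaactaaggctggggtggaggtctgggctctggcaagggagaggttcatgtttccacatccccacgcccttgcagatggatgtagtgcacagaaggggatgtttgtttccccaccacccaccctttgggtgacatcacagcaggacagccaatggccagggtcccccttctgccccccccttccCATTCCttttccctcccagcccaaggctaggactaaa
Pmp22, chr11:63128732-63128981: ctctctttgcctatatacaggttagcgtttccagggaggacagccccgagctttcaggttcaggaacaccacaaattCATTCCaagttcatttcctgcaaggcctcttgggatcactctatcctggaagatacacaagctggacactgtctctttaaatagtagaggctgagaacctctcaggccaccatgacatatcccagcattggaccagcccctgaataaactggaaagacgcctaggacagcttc
The TEAD core lies at -37 to -32 from the start site in *Prx* and at -173 to -168 in *Pmp22*. RefSeq gives 4 windows for *Pmp22*, and the match is in the first, shown here, and not in the other 3. It was present in 12.6% of the 32851 RefSeq windows, searched on both strands. The octamer lies at -233 to -226 in *Prx*, was searched only after the sequence had been read, and occurred in 1.6% of all windows. The glucocorticoid receptor consensus ACANNNTGT (5.84% of all windows), the SOX core ACAAAG (16.5%) and the EGR motif GCGTGGGNG (1.65%) had no match in the windows of the 4 genes. None of these motifs overlaps another in the 2 sequences shown.

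Levels are given in CPM, the reads of a gene scaled to a fixed library total, after TMM scaling between libraries. Divided by the length of the median coding transcript, the median level was highest for *Pmp22* (55.1 CPM per kb) and *Mbp* (20.9 CPM per kb). *Prx* followed at 4.66 CPM per kb, *S100b* at 2.12, *Sox10* at 1.29 and *Ngfr* at 0.211. With the merged gene length of the count table in place of the transcript, *Mbp* fell to 1.29 CPM per kb and *Pmp22* to 12.8, since the *Mbp* entry is 31283 bases long. *Pmp22* stayed the highest of the 6 and *Ngfr* the lowest on both scales.

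*Mbp* encodes the cytoplasmic protein that compacts the myelin membrane. In males its level was 18.3, 31.1 and 41.2 CPM with vehicle, 73.3, 39.1 and 40.6 CPM with weekly prednisone, and 34.7, 66.9 and 24 CPM with daily prednisone. In females it was 44.4, 38.4 and 61.6 CPM with vehicle, 40.1, 75.0 and 43.6 CPM with weekly prednisone, and 29.0, 64.8 and 37.3 CPM with daily prednisone. In most groups a single library stood well above the other two, and all groups next to each other in the order of means overlapped. The lowest library, a vehicle male, and the highest, a weekly female, differed 4.09-fold. Against vehicle, the log2 fold change in males was 0.76 ± 0.42 (SE) with weekly prednisone (edgeR quasi-likelihood test, adjusted p = 0.849) and 0.48 ± 0.42 with daily prednisone (adjusted p = 0.537). In females the corresponding values were 0.13 ± 0.42 (adjusted p = 0.999) and -0.14 ± 0.42 (adjusted p = 0.897). The male daily value went to -0.04 without male daily replicate 2, the library at 66.9 CPM.

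*Pmp22* encodes a tetraspan protein of compact myelin whose gene dosage underlies common inherited neuropathies. Male levels were 42.0, 51.9 and 78.1 CPM with vehicle, 113, 75.5 and 62.9 CPM with weekly prednisone, and 63.7, 92.3 and 44.9 CPM with daily prednisone. Female levels were 75.5, 52.7 and 95.8 CPM with vehicle, 60.8, 106 and 73.4 CPM with weekly prednisone, and 40.2, 86.4 and 66.2 CPM with daily prednisone. Its range over the 18 libraries, 2.81-fold, was the narrowest of the 6 genes, and no pair of neighbouring groups separated. No comparison with vehicle passed the test. The log2 fold change was 0.55 ± 0.35 for weekly males (adjusted p = 0.849), 0.23 ± 0.35 for daily males (adjusted p = 0.736), 0.10 ± 0.35 for weekly females (adjusted p = 0.999) and -0.22 ± 0.35 for daily females (adjusted p = 0.786).

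*Prx* was lower and varied within groups much as *Mbp* and *Pmp22* did. Its highest group mean was in vehicle females, while that of *Mbp* was in weekly females and that of *Pmp22* in weekly males. Male libraries held 9.66, 12.8 and 22 CPM with vehicle, 35.4, 16.8 and 22.2 CPM with weekly prednisone, and 18.8, 35.0 and 13.4 CPM with daily prednisone. Female libraries held 27.1, 21.5 and 36.4 CPM with vehicle, 16.6, 37.1 and 22.4 CPM with weekly prednisone, and 19.9, 30.8 and 17.9 CPM with daily prednisone. The vehicle groups of the sexes nearly separated: 2 of the 3 vehicle females lay above all 3 vehicle males. Female over male vehicle gave a log2 difference of 0.94 ± 0.42, with an unadjusted p of 0.0392 and an adjusted p of 0.452 (edgeR). Against vehicle the log2 fold change was 0.75 ± 0.42 for weekly males (adjusted p = 0.849) and 0.61 ± 0.42 for daily males (adjusted p = 0.404). Females gave -0.16 ± 0.41 with weekly prednisone (adjusted p = 0.994) and -0.31 ± 0.41 with daily prednisone (adjusted p = 0.738).

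*S100b* was low throughout. Male libraries held 2.46, 2.35 and 3.54 CPM with vehicle, 3.17, 3.07 and 3.41 CPM with weekly prednisone, and 3.13, 4.72 and 1.27 CPM with daily prednisone. Female libraries held 3.30, 2.61 and 3.76 CPM with vehicle, 3.08, 5.17 and 4.16 CPM with weekly prednisone, and 1.92, 4.53 and 2.11 CPM with daily prednisone. The daily groups were the most spread: the 3 daily males alone covered a 3.7-fold range. The log2 fold changes against vehicle lay between -0.17 ± 0.39 in daily females (adjusted p = 0.852) and 0.34 ± 0.39 in weekly females (adjusted p = 0.945).

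*Sox10*, which marks the lineage whether or not the cell makes myelin, read 2.11, 2.84 and 3.33 CPM in vehicle males, 5.81, 2.69 and 3.00 CPM in weekly males and 2.57, 4.90 and 1.96 CPM in daily males. In females it read 4.91, 4.46 and 4.48 CPM with vehicle, 3.22, 5.74 and 4.32 CPM with weekly prednisone, and 4.38, 3.65 and 2.60 CPM with daily prednisone. The 3 daily females were all below the 3 vehicle females, the nearest pair being 4.38 and 4.46 CPM. Among all tested genes, 10.2% separated in that direction in this comparison. The log2 fold change in daily females was -0.39 ± 0.35 (adjusted p = 0.600), and in daily males it was 0.22 ± 0.36 (adjusted p = 0.764). Weekly males gave 0.47 ± 0.36 (adjusted p = 0.862) and weekly females -0.07 ± 0.35 (adjusted p = 0.999).

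*Ngfr* departed from the other genes. Male libraries held 0.527, 0.785 and 0.937 CPM with vehicle, 0.528, 0.192 and 0.209 CPM with weekly prednisone, and 0.417, 0.377 and 0.490 CPM with daily prednisone. Female libraries held 0.931, 1.20 and 1.61 CPM with vehicle, 0.670, 1.24 and 0.925 CPM with weekly prednisone, and 0.538, 1.01 and 1.03 CPM with daily prednisone. All 9 female libraries were above the male median of 0.490 CPM, 5 of them above every male library, and 7 of the 9 male libraries were below every female one. The lowest and the highest library differed 8.39-fold, the widest range of the 6 genes.

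**Figure D1:**
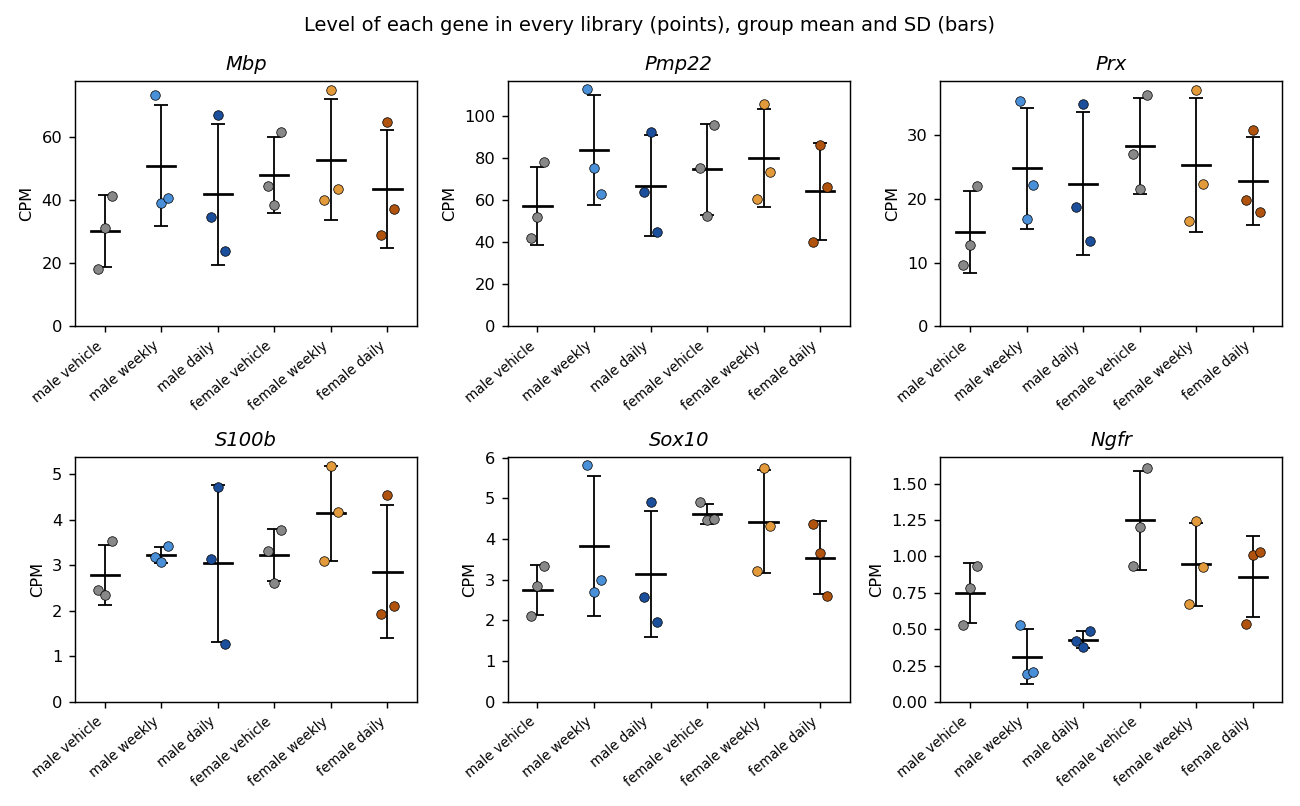
Level of each of the 6 genes in CPM (vertical axes, starting at 0) in every library, by group on the horizontal axis; points are libraries, horizontal lines group means and bars SDs (n = 3). *Mbp*, *Pmp22* and *Prx* have a single high library in most groups and overlap throughout, while *Ngfr* is higher in females (0.538 to 1.61 CPM) than in most males (0.192 to 0.937 CPM).

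Ordered by group mean, *Mbp* ran from 52.9 ± 19.2 CPM (SD, n = 3) in weekly females to 30.2 ± 11.5 CPM in vehicle males, and *Pmp22* from 83.8 ± 26.1 CPM in weekly males to 57.3 ± 18.7 CPM in vehicle males. *Prx* ran from 28.3 ± 7.5 CPM in vehicle females to 14.8 ± 6.41 CPM in vehicle males. *S100b* ran from 4.14 ± 1.04 CPM in weekly females, and *Sox10* from 4.61 ± 0.257 CPM in vehicle females, each down to vehicle males, at 2.78 ± 0.657 and 2.76 ± 0.617 CPM. For these 5 genes every group overlapped its neighbour in the order, so the order of neighbours is not resolved. *Ngfr* had all 3 female groups on top, at 1.25 ± 0.343 CPM with vehicle, 0.947 ± 0.288 CPM with weekly and 0.857 ± 0.277 CPM with daily prednisone. The male groups followed at 0.750 ± 0.207 CPM with vehicle, 0.428 ± 0.057 CPM with daily and 0.310 ± 0.189 CPM with weekly prednisone, and only the step from vehicle to daily males lay between libraries that did not overlap.

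Averaged over the treatments, *Ngfr* was higher in females than in males by 1.11 ± 0.25 on the log2 scale (edgeR quasi-likelihood test, adjusted p = 0.0127). It was the only 1 of the 6 genes called in this contrast, in which 7.61% of the 13596 tested genes were called. The call rests on 115 female and 51 male reads, a depth-adjusted ratio of 2.1 with an exact 95% interval from 1.49 to 2.98 that covers counting error only. By treatment, the ratio was 1.69 (0.985 to 2.95) with vehicle, 3.00 (1.49 to 6.54) with weekly and 2.1 (1.16 to 3.94) with daily prednisone, and these intervals overlap. In vehicle mice alone the edgeR difference was 0.74 ± 0.41 (adjusted p = 0.554). The gene stayed called without each of the 18 libraries in turn, with an adjusted p between 0.00763 and 0.0331. A minimum count of 30 removed it from the test. For the other 5 genes the difference between the sexes ranged from 0.09 ± 0.20 for *Pmp22* (adjusted p = 0.855) to 0.36 ± 0.20 for *Sox10* (adjusted p = 0.314). In vehicle mice alone none of the 6 was called, against 0.765% of all tested genes.

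Markers of other cell types were read beside this difference. Of 7 adipocyte markers, 2 were called higher in females averaged over treatments, and their summed level was 788 to 5990 CPM in female and 468 to 1680 CPM in male libraries. Within groups, *Ngfr* did not track that sum (r = -0.17 and rho = -0.14 over 18 libraries, adjusted p = 0.668 and 0.751 in an exact permutation test within groups). It did follow the fibroblast sum (r = 0.74, rho = 0.78, adjusted p = 0.0112 and 0.00866, exact permutation), the smooth muscle and pericyte sum (r = 0.66, rho = 0.70, adjusted p = 0.0163 and 0.0205) and, with a negative sign, the myofiber sum (r = -0.64, rho = -0.69, adjusted p = 0.0371 and 0.0274). *Ngfr* followed the sum of the Schwann cell markers *Cdh19*, *Erbb3* and *Egr2*, most of it *Egr2*, as closely (r = 0.74, rho = 0.73, adjusted p = 0.00786 and 0.0112, exact permutation). None of the 7 fibroblast or 5 smooth muscle and pericyte markers, of which some cells also express *Ngfr*, was called in this contrast, where 7.61% of all tested genes were. The correlations above were computed after group means were removed, so they hold no information on the difference between the sexes. The part of adipocytes or of these other cells in the *Ngfr* difference was not tested.

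Against vehicle, *Ngfr* was lower in all 4 comparisons and passed in none. The log2 fold change was -0.80 ± 0.46 in daily males (adjusted p = 0.314), where all 3 treated libraries lay below all 3 vehicle libraries, as for 17.1% of tested genes. It was -1.25 ± 0.49 in weekly males, with an unadjusted p of 0.0209 and an adjusted p of 0.849. Females gave -0.52 ± 0.39 with daily prednisone (adjusted p = 0.522) and -0.42 ± 0.39 with weekly prednisone (adjusted p = 0.933). Averaged over the sexes, the value was -0.66 ± 0.30 for daily (adjusted p = 0.154) and -0.83 ± 0.31 for weekly prednisone (adjusted p = 0.336). The daily and weekly comparisons share their vehicle mice.

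**Figure D2:**
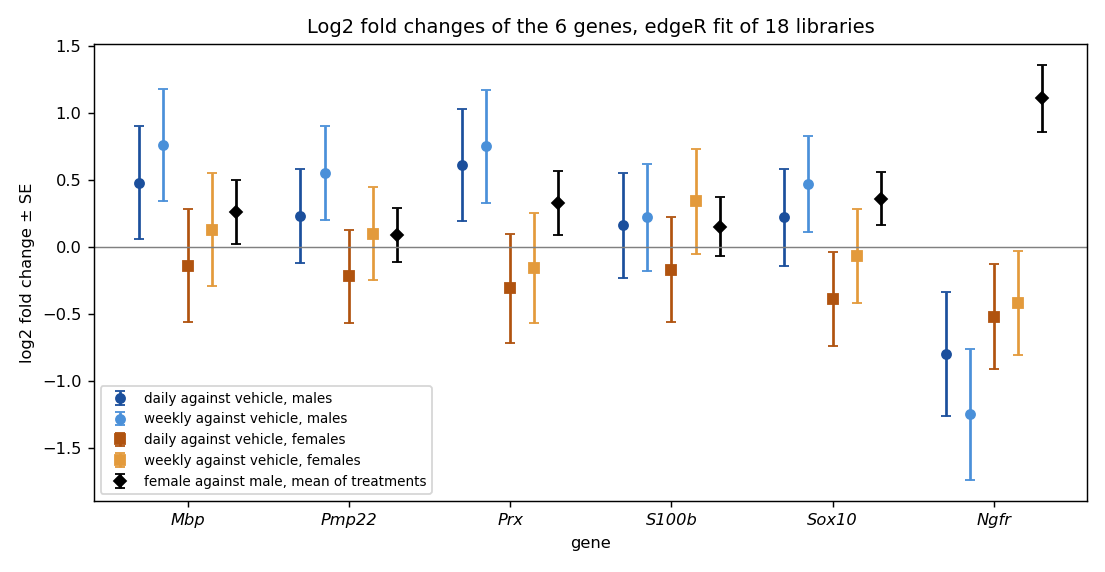
Log2 fold change with its SE (vertical axis) of each gene (horizontal axis) in the 4 comparisons with vehicle and in the female against male comparison averaged over treatments, from an edgeR fit of 18 libraries. The *Ngfr* female against male value of 1.11 is the one that passed the test.

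None of the 6 genes was called in any comparison of prednisone with vehicle. The share of all tested genes called was 6.46% for daily males, 0.382% for daily females and 15% for daily prednisone averaged over the sexes. It was 0.0% for weekly males, weekly females and weekly prednisone averaged over the sexes by edgeR, where 777, 1083 and 1492 genes had an unadjusted p under 0.05, and DESeq2 called 0, 149 and 180 genes. With daily prednisone, every treated library was above every vehicle one for 16.4% of genes among males and 12.9% among females, and for none of the 6. In the weekly comparisons 7.76% separated upward and 8.97% downward in males, and 4.94% upward and 3.13% downward in females, and again none of the 6 was among them. The spread between mice sets what could be seen here: the SEs of the members ran from 0.35 to 0.49 in these 4 comparisons.

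*Mbp*, *Pmp22* and *Prx* had values above 0 in both male comparisons and at or below 0.13 in both female ones, and the difference between the sexes did not pass the test. With daily prednisone the female response minus the male response was -0.92 ± 0.58 for *Prx* (adjusted p = 0.889), -0.61 ± 0.59 for *Mbp* (adjusted p = 0.889) and 0.28 ± 0.59 for *Ngfr* (adjusted p = 0.930). With weekly prednisone it was -0.91 ± 0.58 for *Prx* (adjusted p = 1.0) and 0.84 ± 0.63 for *Ngfr* (adjusted p = 1.0). By edgeR no gene of the table was called for a sex difference of either response (0.0% each), and by DESeq2 2 genes for daily and 0 for weekly prednisone, with 638 genes for daily and 357 for weekly prednisone at an unadjusted p under 0.05. The vehicle males had the lowest mean of the 6 groups for 5 of the 6 genes, the exception being *Ngfr*, and they are the baseline of every male comparison. Daily against weekly prednisone gave values between -0.32 and 0.45 in males and between -0.52 and -0.10 in females. By edgeR no gene of the table was called there either (0.0% in each sex; 1829 and 2401 genes at an unadjusted p under 0.05), while DESeq2 called 197 genes in males and 540 in females. With the replicate block in females, edgeR called 1 gene, or 2 with the block and those groups compared alone, none of them among the 6. In bulk RNA, fewer Schwann cells in a library and less RNA per Schwann cell cannot be told apart.

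The genes moved together from mouse to mouse. After the mean of each group was subtracted from log2 CPM, *Mbp* and *Prx* correlated at r = 0.95 (rho = 0.91) and *Mbp* and *Pmp22* at r = 0.94 (rho = 0.94) over the 18 libraries. The adjusted p was 0.000643 for each r, and 0.00113 and 0.000965 for the rho values, in an exact permutation test within groups of 46656 relabellings, and each r was 0.93 without the 2 libraries farthest from the median of *Mbp*. *Pmp22* and *Prx* gave r = 0.88 (rho = 0.83, adjusted p = 0.00129 and 0.00264, exact permutation), and *Prx* and *Sox10* gave r = 0.84 (rho = 0.85, adjusted p = 0.00315 and 0.00264, exact permutation). Of 15 pairs, 12 passed by r and 10 by rho after Benjamini-Hochberg adjustment. Many genes outside the set followed a member as closely. Ranked by r with *Mbp* among all tested genes, *Prx* was number 3 and *Pmp22* number 4, but *S100b* was 368, *Sox10* 785 and *Ngfr* 1807. Among the 10 pairs without *Ngfr*, r ran from 0.57 to 0.95 and 9 passed. *S100b* with *Sox10* was the exception, at r = 0.57 (rho = 0.55, adjusted p = 0.0938 and 0.0677, exact permutation), which fell to 0.29 without the 2 libraries farthest from the median. The 5 pairs with *Ngfr* ran from 0.23 with *S100b* to 0.68 with *Pmp22*, and 3 passed. Without male weekly replicate 1, 7 pairs passed, the fewest without any single library.

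**Figure D3:**
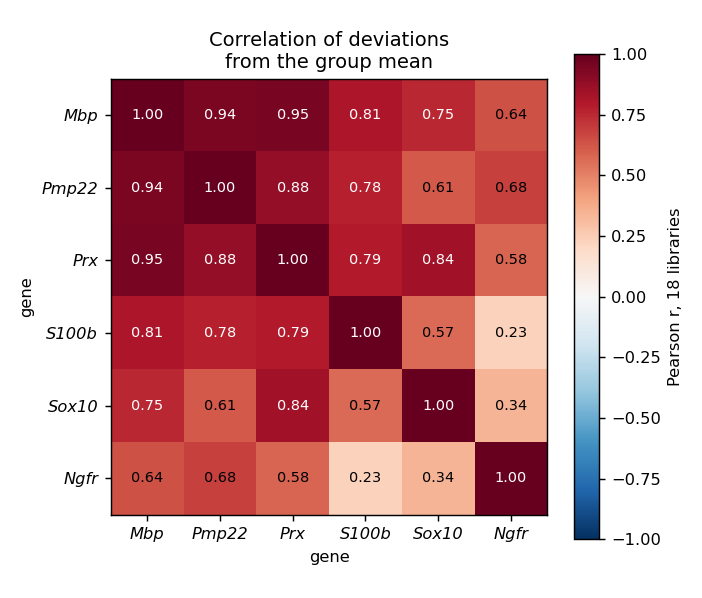
Pearson r between the 6 genes over 18 libraries, computed on deviations of log2 CPM from the group mean (rows and columns are genes, the colour scale runs from -1 to 1). *Mbp*, *Pmp22* and *Prx* form a block at 0.88 to 0.95, and *Ngfr* has the lowest values, 0.23 to 0.68.

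The co-variation was also read with the library highest in *Mbp* in each group set apart. In 6 of 6 groups, taken as a description, the library with the most *Mbp* also had the most *Pmp22* and the most *Prx*, in 5 of 6 the most *S100b*, and in 4 of 6 the most *Sox10* and the most *Ngfr*. Over the other 12 libraries the r with *Mbp* was 0.75 for *Pmp22*, 0.68 for *Prx*, 0.57 for *S100b*, 0.36 for *Sox10* and 0.33 for *Ngfr*. Leaving out the highest libraries narrows the range of *Mbp*, which can lower r by itself. These values therefore cannot show how much of the co-variation the high libraries carried. The high libraries carry different replicate numbers in different groups.

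**Figure D4:**
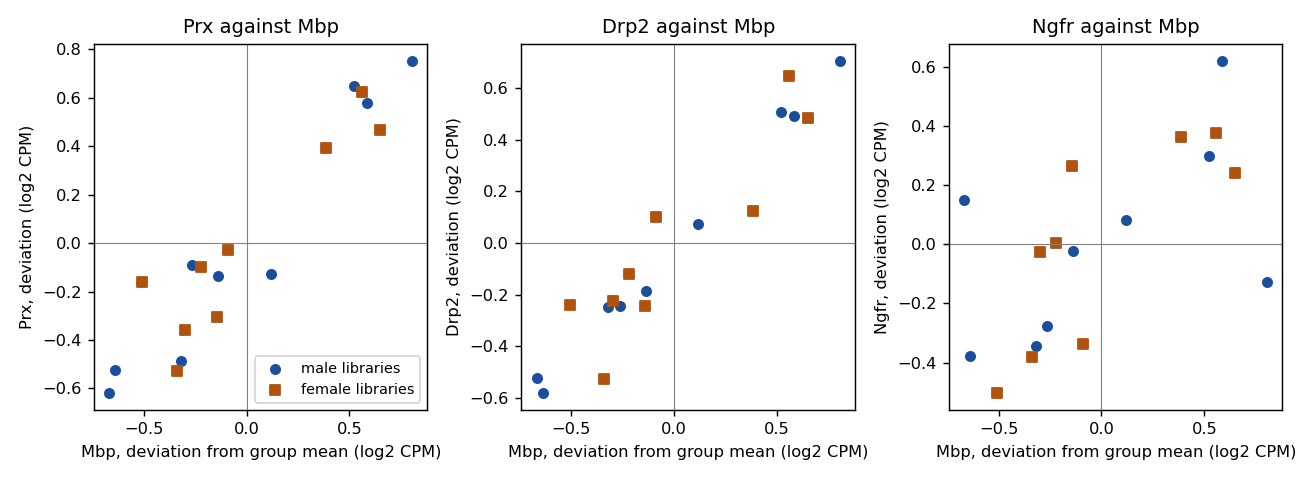
Deviation from the group mean in log2 CPM of *Prx*, *Drp2* and *Ngfr* (vertical axes) against that of *Mbp* (horizontal axes); each point is 1 of 18 libraries, circles male and squares female. The 6 libraries with the most *Mbp* of their group stand apart at the right, and *Prx* (r = 0.95) and *Drp2* (r = 0.96) follow *Mbp* more closely than *Ngfr* does (r = 0.64).

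Among all tested genes, several of those with a profile nearest to *Mbp*, *Pmp22* and *Prx* are known from myelin; the r values are a description with no test. Among those nearest to *Mbp* were *Drp2* (r = 0.96), the periaxin partner, and *Prx* (r = 0.95). Nearest to *Prx* were *Drp2* (r = 0.96), *Ncmap* (r = 0.96), a myelin membrane protein, and *Chp2* (r = 0.95). Nearest to *Pmp22* were *Matn2* (r = 0.97), a matrix protein, *Apod* (r = 0.97), a lipocalin, and *Mal* (r = 0.95), a membrane protein of myelin. The thinly covered genes had other neighbours: *Wrnip1*, *Ccdc157* and *Fgf14* for *S100b* (r = 0.90 to 0.93), *Hdac5*, *Map3k3* and *Dtx4* for *Sox10* (r = 0.87 to 0.91), and *Gm37214*, *Hmgn2* and *Rnf19b* for *Ngfr* (r = 0.89 to 0.95). *Gm37214*, with 156 reads in all, is as sparse as *Ngfr*.

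*Mbp*, *Pmp22* and *Prx* also followed the summed markers of other cells that stay with the fibers. In 42 relations tested by exact permutation within groups, *Mbp* correlated with the sum of 3 other Schwann cell markers (*Cdh19*, *Erbb3* and *Egr2*, of which *Egr2* gave most reads) at r = 0.72 (rho = 0.79, adjusted p = 0.00786), *Pmp22* at r = 0.79 (rho = 0.80, adjusted p = 0.0018) and *Prx* at r = 0.70 (rho = 0.74, adjusted p = 0.00855). *Egr2* received 13601 reads, *Erbb3* 1169 and *Cdh19* 754, so that sum mainly follows *Egr2* and was not shown to measure Schwann cell content. The sum fell to 12.9 CPM in weekly females and 19.4 CPM in daily females at its lowest, against 33.3 CPM or more in the other groups. *Mbp*, *Pmp22* and *Prx* correlated with fibroblast markers at r = 0.80 to 0.88, with smooth muscle and pericyte markers at r = 0.81 to 0.83 and with endothelial markers at r = 0.70 to 0.82. With the myofiber markers *Acta1*, *Ckm*, *Myh4*, *Myh1* and *Tnnt3* the sign was negative, at r = -0.70 for *Mbp* (rho = -0.68), -0.81 for *Pmp22* (rho = -0.75) and -0.67 for *Prx* (rho = -0.68), with adjusted p from 0.0045 to 0.00855 (exact permutation). *S100b* passed with the same sums, at r = 0.63 with Schwann cell, 0.67 with fibroblast and -0.67 with myofiber markers (rho = 0.69, 0.72 and -0.75, adjusted p = 0.0221, 0.0154 and 0.0045, exact permutation). *Sox10* did not pass with the Schwann cell sum (r = 0.43, rho = 0.47, adjusted p = 0.162), the fibroblast sum (r = 0.52, rho = 0.49, adjusted p = 0.0855) or the myofiber sum (r = -0.22, rho = -0.26, adjusted p = 0.441), and passed with the endothelial sum (r = 0.62, rho = 0.65, adjusted p = 0.022, permutation) and the smooth muscle and pericyte sum (r = 0.56, rho = 0.66, adjusted p = 0.0387, permutation). Macrophage markers showed no such relation with *Mbp* (r = 0.15, rho = 0.17, adjusted p = 0.598, exact permutation). The 4 neuronal genes *Nefl*, *Nefm*, *Chat* and *Snap25* summed to at most 0.385 CPM in any library, so RNA of these genes was at or near 0. These 4 genes do not measure axonal RNA as a whole. The part of the non-fiber share of each library in the member levels was not tested.

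A wider list of 44 Schwann cell genes, of which 39 were tested, was read beside the 6. In males its median log2 fold change was 0.38 with daily and 0.40 with weekly prednisone, against 0.05 and 0.01 over all tested genes, and 32 and 37 of the 39 genes were above 0. In females the medians were -0.22 and -0.09, against 0.01 over all tested genes in each, with 14 and 16 genes above 0. This shift was not particular to the list. Daily male and female medians were 0.45 and -0.41 for endothelial, 0.41 and -0.29 for smooth muscle and pericyte, and 0.23 and -0.39 for fibroblast markers. Weekly medians in that order were 0.13 and -0.22, 0.59 and -0.19, and 0.11 and -0.09. Macrophage markers differed (0.06 and 0.02 daily, -0.1 and 0.58 weekly), as did adipocyte markers, with medians above 0 in both sexes. No gene of the list was called by edgeR in these 4 comparisons. An unadjusted p under 0.05 was reached by 6 genes in daily males, 3 in weekly males, 4 in daily females and 2 in weekly females. Over all 13596 tested genes the counts were 3101, 777, 2354 and 1083 in the same order. DESeq2 called 2 genes of the list, *Scn7a* and *Dag1*, in daily males, where it called 1328 of 11608 genes. In the female minus male difference of the response, 35 of 39 genes were below 0 with daily and 34 with weekly prednisone, and edgeR called no gene (2 and 0 genes at an unadjusted p under 0.05). Both differences use the same vehicle mice, so the counts are not independent. In vehicle mice alone, 36 of the 39 genes were higher in females than in males, with a median of 0.47 against 0.02 over all tested genes, and 0 were called. The median there was 0.55 for endothelial, 0.33 for smooth muscle and pericyte, 0.21 for fibroblast and -0.14 for macrophage markers.

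By class, the 9 tested genes of non-compact myelin and adhesion were all above 0 in daily males (0.04 to 0.86) and in weekly males (0.35 to 0.73), and 7 of 9 were below 0 in daily females. In weekly females 5 of the 9 were above 0, with a median of 0.13. The 5 genes that the list places with compact myelin (*Pllp*, *Mal*, *Cnp*, *Cd9* and *Ncmap*, the last named for non-compact myelin) were below 0 in daily females (-0.76 to -0.19, the lowest being *Ncmap*) and in weekly females (-0.20 to -0.08). They were above 0 in weekly males (0.04 to 0.75), and in daily males 3 were above and 2 below 0 (-0.14 to 0.27). None of these was called by edgeR. Among the transcription factors, *Pou3f1*, which acts before myelination, had the largest rise of the list in daily males, 1.33 ± 0.58, and did not pass (adjusted p = 0.181). *Egr2*, the master regulator of myelination, was 4.29 CPM in female weekly replicate 1 and 8.91 CPM in female daily replicate 1, against 29.1 to 117 CPM in the other 16 libraries. *Jun*, of the same class of the list, was also lowest there, at 113 and 228 CPM against 325 to 872 CPM in the other 16. The cause of these low values was not tested. In these 2 libraries *Mbp* was 40.1 and 29.0 CPM, within the range of the rest. Leaving both out turned the sign of the *Mbp*, *Pmp22* and *S100b* values in daily females (to 0.08, 0.03 and 0.03) and of *Prx* and *Sox10* in weekly females (to 0.06 and 0.12), none of which was called with or without them. *Ngfr* stayed called between the sexes without both (adjusted p = 0.00486). In daily females the largest rise was *Tead1* (0.71 ± 0.30, adjusted p = 0.228) and the largest fall *Mag* (-0.85 ± 0.53, adjusted p = 0.430), the myelin-associated glycoprotein of the inner wrap. In weekly females these were *Ntrk2* (1.31 ± 0.50, adjusted p = 0.481) and *Drp2* (-0.50 ± 0.37, adjusted p = 0.857). *Plekhb1* had the largest fall in daily males (-0.38 ± 0.15, adjusted p = 0.124) and in weekly males (-0.31 ± 0.15, adjusted p = 0.849), where *Ntrk2* had the largest rise (0.89 ± 0.51, adjusted p = 0.849).

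**Figure D5:**
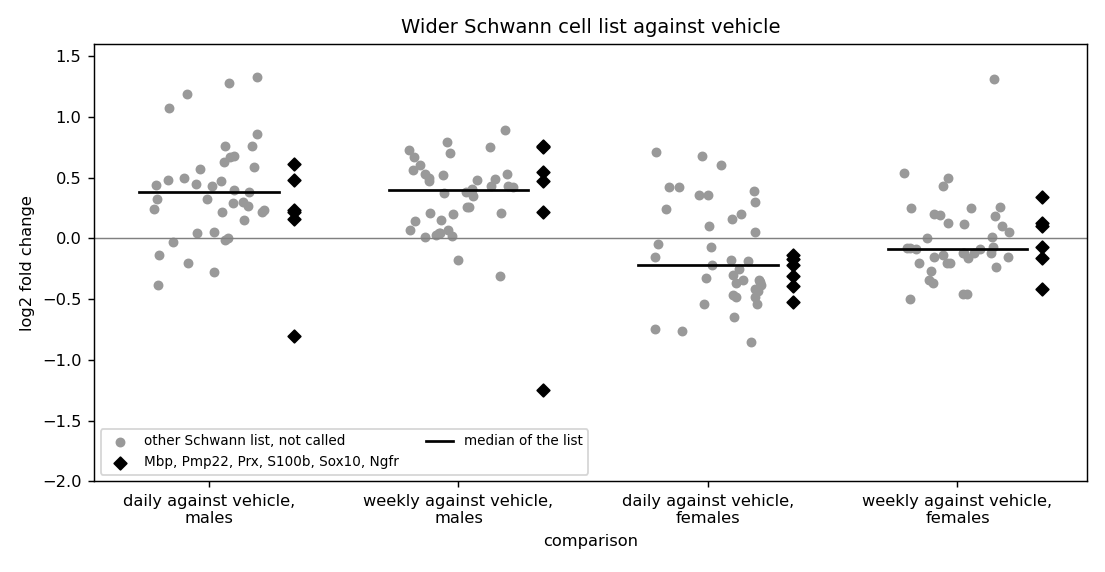
Log2 fold change against vehicle (vertical axis) of the 39 tested genes of the wider Schwann cell list (circles) and of the 6 genes (diamonds) in each comparison (horizontal axis); horizontal lines are medians of the list. The medians are 0.38 and 0.40 in males and -0.22 and -0.09 in females, and edgeR called no gene.

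Averaged over the sexes, 5 of the 39 genes were called with daily prednisone, where 15% of all tested genes were. The 4 that rose were *Yy1* (0.42 ± 0.11, adjusted p = 0.0160), a general transcription factor, *Dag1* (0.42 ± 0.10, adjusted p = 0.0102), which encodes dystroglycan and is also a muscle fiber gene, *Scn7a* (0.81 ± 0.25, adjusted p = 0.0400) and *Cdh19* (0.98 ± 0.31, adjusted p = 0.0429), both known from non-myelinating or immature Schwann cells. *Plekhb1* fell by 0.36 ± 0.10 on the log2 scale (adjusted p = 0.0256). *Dag1* and *Yy1* kept their call under all 26 alternative settings, while *Plekhb1* kept it under 19, *Cdh19* under 15 and *Scn7a* under 12. With weekly prednisone edgeR called none, while 2 genes had an unadjusted p under 0.05 and DESeq2 called *Plekhb1*. Between the sexes, averaged over treatments, *Tead1* had a female minus male value of -0.64 ± 0.17 (adjusted p = 0.0310, edgeR). It was the only 1 of the 39 genes called there, where 7.61% of all tested genes were. *Tead1* kept the call under 15 of 25 settings, with adjusted p up to 0.0639. Of the list, *Gfap*, *Gal3st1*, *Gap43*, *Sox2* and *Gjb1* were too thinly covered to be tested.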

How the data were processed

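RNA from isolated quadriceps myofibers was sequenced in 18 libraries. The authors aligned the reads to the mouse genome and deposited raw counts of reads for each gene. The submitters' processing notes name TopHat2 2.1.0, Bowtie2 2.2.6 and HTSeq, and the coordinates of the table are mm10. The annotation release and strand setting are not given in the sources used here. The counts were deposited without normalization. Groups came from the labels.

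The filter was filterByExpr of edgeR 4.0.16 (R 4.3.3) at a minimum count of 10. TMM factors and a robust quasi-likelihood fit with 1 mean per group used the 18 libraries together. Benjamini-Hochberg adjustment ran over the 13596 tested genes, and a gene was called at an adjusted p under 0.05. The SE is the log2 fold change divided by the root of F. CPM are counts over the TMM-scaled library size. The fit was tested on simulated data. Co-variation was measured on log2 CPM with a prior count of 2, after subtracting group means, with two-sided exact permutation within groups. Nearest genes were ranked by the same r, given with no test.

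The 6 genes and the lists were chosen with earlier results of these data known. A pair of genes of the wider list and of the Schwann cell markers is not reported here, and counts and sums leave them out. All 6 genes were named, together with the genes of the wider list that were called and, in each comparison with vehicle, the gene of that list with the largest rise and the largest fall. Each mouse gave 1 library. Motifs were searched in the 250 upstream bases of each RefSeq window, leaving out the bases after its start site. *Pmp22* has several start sites, and its later windows lie within the gene. Alternatives were DESeq2 1.42.0, its size factors in edgeR, limma-voom (limma 3.58.1), other count filters, groups fitted alone, a replicate block and each library left out. Whether same-numbered libraries deviate together was checked. In daily against weekly females the 3 correlations were 0.501, 0.483 and 0.439. The labels state no pairs, so the values given for that comparison come from the fit without a block, and the replicate block was read beside it. In every other comparison at least 1 was below 0.1 (range -0.318 to 0.279).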

Additional observations from a re-analysis of the deposited data

How the results depend on the processing

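No call of the 6 genes changed under the alternatives that could test them. *Ngfr* between the sexes kept its call in all 24 settings that tested it, and a minimum count of 30 removed it, leaving 0 of the 6 genes called in place of 1. Of 288 values of single genes under other settings, 283 kept their sign and 5 turned, all without female daily replicate 1 and female weekly replicate 1, a choice made after seeing the data: *Mbp*, *Pmp22* and *S100b* in daily females went to 0.08, 0.03 and 0.03, and *Prx* and *Sox10* in weekly females to 0.06 and 0.12. With each library left out in turn, 664 of 684 values kept their sign. Those that turned had ranges, in daily males, of -0.04 to 0.79 for *Mbp*, -0.07 to 0.54 for *Pmp22*, -0.30 to 0.53 for *S100b* and -0.27 to 0.48 for *Sox10*, all turned by male daily replicate 2. In daily females they were -0.54 to 0.09 for *Mbp*, -0.49 to 0.03 for *Pmp22* and -0.68 to 0.03 for *S100b*. In weekly females they were -0.23 to 0.35 for *Mbp*, -0.18 to 0.31 for *Pmp22*, -0.57 to 0.06 for *Prx* and -0.32 to 0.12 for *Sox10*. Between the sexes they were -0.01 to 0.19 for *Pmp22* and -0.02 to 0.30 for *S100b*.

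For the wider list, the 0 genes called in daily males became 1 with the replicate block, 2 with the groups compared alone, 2 with DESeq2, 2 without the pair of low *Egr2* libraries, and 0 to 2 with single libraries left out (2 without female daily replicate 1 or female vehicle replicate 2, and 1 without female daily replicate 3, female vehicle replicate 3 or female weekly replicate 2). These were *Scn7a*, *Dag1* or both. The 5 genes called for daily prednisone averaged over the sexes became 3 with no filter on low counts and 2 to 5 with single libraries left out, being 2 without female daily replicate 2 or 3, female vehicle replicate 2, male daily replicate 2 or male vehicle replicate 1, and 3 without female vehicle replicate 1, male daily replicate 1, male vehicle replicate 2 or male weekly replicate 1 or 3. For weekly prednisone averaged over the sexes, DESeq2 called 1 gene, *Plekhb1*, in place of 0. The number of member pairs passing ran from 7 to 13 of 15 with single libraries left out, the lowest without male weekly replicate 1; the cause was not tested in these cases.

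In daily against weekly females, where same-numbered libraries deviated together though the labels state no pairs, the replicate block left 0 of the 6 genes called, also when the 2 groups were compared alone. The block changed no other call of the 6. Depth limits *Ngfr* most, with 2 to 18 reads per library.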
